A study of Arabidopsis thaliana with 3 samples.

Results

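GH3.1, GH3.3, WES1 and IAA29 are 4 genes known as targets of auxin, a plant growth hormone, and they were taken by symbol from a probe-to-gene table that names 13356 genes of the array. Each of the 4 was read by 1 probe set: GH3.3 (AT2G23170) by 245076_at, IAA29 (AT4G32280) by 253423_at, WES1 (AT4G27260, also named GH3.5) by 253908_at and GH3.1 (AT2G14960) by 266611_at. They were picked with their readings on these same arrays known, so the values below describe them and support nothing by the choice of genes. RNA of whole seedlings of Arabidopsis thaliana, 2 weeks old and kept at 22 °C in days of 16 h light and 8 h dark on MS medium, was hybridised to Affymetrix arrays. There were 3 arrays, 1 from a transgenic plant overexpressing DRB3, 1 from a transgenic plant overexpressing DRB2 and 1 from the wild type, and no group had a replicate. DRB genes encode double-stranded RNA binding proteins, a family with members that act in small RNA pathways. The promoter that drives each transgene, the number of independent lines and the number of seedlings in an RNA sample are not stated in the labels.

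Auxin is sensed by receptors of the TIR1/AFB family, which bind Aux/IAA repressor proteins and send them for degradation, and auxin response factors then switch on target genes. Early targets include the Aux/IAA genes themselves and the GH3 genes. Several GH3 enzymes join auxin to amino acids, which takes the free hormone out of action, so both families feed back on the signal that induces them. GH3.1, GH3.3 and WES1 belong to the auxin-conjugating branch of the GH3 family, and WES1 is also known to act on salicylic acid, a defence hormone. IAA29 is an Aux/IAA protein known for its induction by shade and warmth in growing shoots.

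The unit throughout is the MAS5 intensity, a linear brightness per probe set that the authors had scaled to the same mean on every array. Readings under 109 units, the floor used here, were treated as too weak to order and were raised to the floor before a ratio was taken. A fold with 1 reading under the floor is therefore a bound, written "at least", and no fold is given where both lay under it. A gene was called higher or lower where its floored readings lay at least 2-fold apart. With 1 array per group there is no error, test or p-value for any difference, and so few arrays limit the precision. In whole seedlings, fewer cells of a type cannot be told apart from less RNA per cell.

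GH3.3, an enzyme that conjugates auxin, was the member with the widest spread. It read 1235 units in the DRB3 overexpressor, 99.1 in the DRB2 overexpressor and 68.1 in wild type. Only the DRB3 overexpressor reading lay above the floor. GH3.3 was at least 11.4-fold higher in the DRB3 overexpressor relative to wild type, and the bound against the DRB2 overexpressor is the same number because both lower readings were set to the same floor. The DRB2 overexpressor and wild type cannot be ordered for this gene. Without a floor and with 16 units added to each reading, the DRB3 overexpressor was 14.9-fold above wild type and 10.9-fold above the DRB2 overexpressor.

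IAA29, the Aux/IAA repressor gene, was also highest in the DRB3 overexpressor. It read 258 units there, 115 in the DRB2 overexpressor and 76.1 in wild type. The wild-type reading lay under the floor and that of the DRB2 overexpressor just above it. IAA29 was at least 2.37-fold higher in the DRB3 overexpressor relative to wild type. Against the DRB2 overexpressor, where both readings were above the floor, it was 2.24-fold higher. Its reading in the DRB2 overexpressor was at least 1.06-fold that of wild type and was not called. With the floor at 302 units (percentile 60 of the probe sets in place of 40) all 3 readings lie under it, and IAA29 is then called in no comparison.

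WES1, which acts on auxin and salicylic acid, was the member read above the floor on all 3 arrays. It read 540.5 units in the DRB3 overexpressor, 555 in the DRB2 overexpressor and 272 in wild type. Both overexpressors were close to each other and above wild type. The ratio to wild type was 1.98-fold for the DRB3 overexpressor, just under the threshold, and 2.04-fold for the DRB2 overexpressor, just over it. The overexpressors themselves lay 1.03-fold apart, so the threshold separates readings of nearly the same size and no difference between the overexpressors is drawn from it. In log2 units WES1 stood at 0.99 over wild type in the DRB3 overexpressor, where 163 of 6877 genes with both readings above the floor had a higher ratio. It stood at 1.03 in the DRB2 overexpressor, where 50 of 6975 such genes did. The central 95% of those genes ran from -1.01 to 0.98 for the DRB3 overexpressor and from -0.73 to 0.76 for the DRB2 overexpressor, each against wild type. Between the overexpressors the log2 ratio of WES1 was -0.04.

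GH3.1, the fourth member and another auxin-conjugating enzyme, was not measured above the floor on any array. It read 28.5 units in the DRB3 overexpressor, 36.5 in the DRB2 overexpressor and 4.14 in wild type. No fold is given for it. Across the array table, 5590 genes, or 41.9%, lay under the floor on all 3 arrays, so a gene in that state is common here. GH3.1 would pass 2-fold over wild type if weak readings were kept and 16 units were added, at 2.21-fold in the DRB3 overexpressor and 2.6-fold in the DRB2 overexpressor. That setting calls 508 and 662 genes higher in those comparisons, where 192 and 71 were called with the floor.

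**Figure D1:**
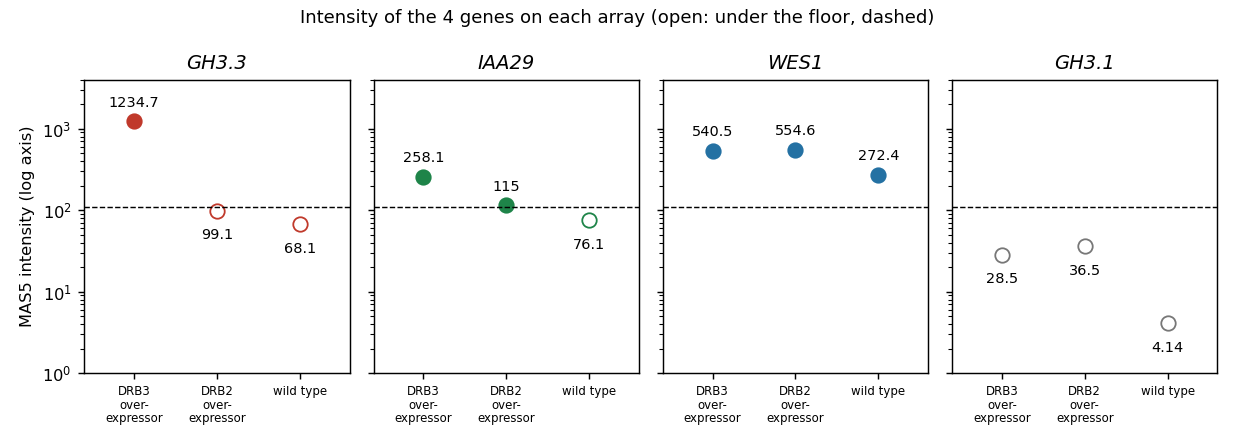
MAS5 intensity (log axis) of GH3.3, IAA29, WES1 and GH3.1 on the DRB3 overexpressor, DRB2 overexpressor and wild-type arrays, 1 point per array, with open points under the dashed floor of 109 units. GH3.3 is above the floor only in the DRB3 overexpressor, IAA29 is at 258, 115 and 76.1 units, WES1 is at 540.5 and 555 units in the overexpressors and 272 in wild type, and all GH3.1 points are open.

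In the DRB3 overexpressor against wild type, 2 of the 4, GH3.3 and IAA29, were at least 2-fold higher, where 1.44% of all genes were. With the DRB2 overexpressor set against wild type, 1 of the 4, WES1, was higher, where 0.532% of all genes were. In the DRB3 against the DRB2 overexpressor GH3.3 and IAA29 were higher, 2 of the 4, where 0.577% of all genes were. None of the 4 was at least 2-fold lower in any of the 3 comparisons, where 1.53%, 0.412% and 0.614% of all genes were lower in the same order. The genes were chosen for these readings, so nothing is read from the distance between the counts and the shares. The comparisons with wild type use the same wild-type array, and those with the DRB3 overexpressor use the same DRB3 overexpressor array. The 3 comparisons are therefore not separate evidence.

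The share of genes called depends on their level. By the mean of the 3 arrays, GH3.3 and WES1 stood at nearly the same level and IAA29 lower. The mean of GH3.3 comes mostly from its reading in the DRB3 overexpressor. Genes around that mean need not be under the floor on the other arrays, as GH3.3 was. Of the 2336 genes with a mean intensity within 1.5-fold of that of GH3.3, 2.70% were at least 2-fold higher in the DRB3 overexpressor relative to wild type. The corresponding share was 2.06% of 1945 genes around the mean of IAA29. Around the mean of WES1, 1.16% of 2328 genes were at least 2-fold higher in the DRB2 overexpressor relative to wild type. Of the 6140 genes under the floor in wild type, the state of GH3.3 and IAA29, 0.537% were at least 2-fold higher in the DRB3 overexpressor.

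Being under the floor in both the DRB2 overexpressor and wild type and clearly read in the DRB3 overexpressor was rare. Of 5710 genes under the floor on both of those arrays, 7, or 0.123%, reached at least 2 times the floor in the DRB3 overexpressor. GH3.3 was the only 1 of them to reach 10 times the floor, a limit set after its reading was seen. The other 6 were AT4G19430 at 498 units in the DRB3 overexpressor, AT5G51440 at 487.5, Hop3 at 322, AT3G49960 at 272, GSTU25 at 249 and AT4G02090 at 233. GSTU25 encodes a glutathione S-transferase of the tau class. Hop3 belongs to the HOP co-chaperones, which link heat shock proteins. These names too were picked after their values were seen.

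**Figure D2:**
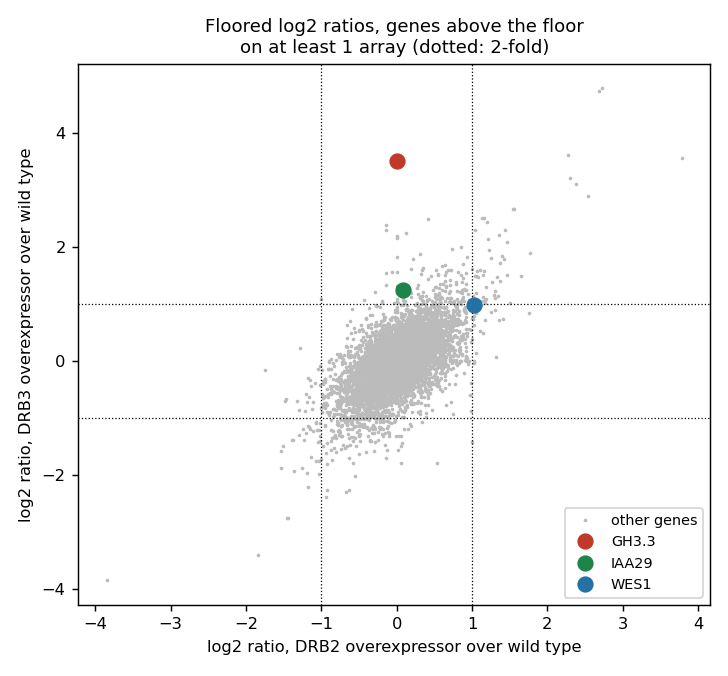
Floored log2 ratio of the DRB3 overexpressor over wild type (vertical) against that of the DRB2 overexpressor over wild type (horizontal) for the 7766 genes with a reading above the floor, with dotted lines at 2-fold; both axes share the wild-type array, so the tilt of the grey cloud is not a result. GH3.3 lies at 3.51 on the vertical axis and at 0 on the horizontal one, where both its readings were under the floor, IAA29 at 1.25 and 0.08, and WES1 at 0.99 and 1.03.

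The rest of the auxin pathway was covered thinly by the named probe sets. In 6 lists that had a measured gene, 24 of 86 listed genes other than the members were measured, and 17 of the 24 lay under the floor on all 3 arrays. None of the 7 above it was at least 2-fold apart in any comparison. Over all genes, 1.44% were higher and 1.53% lower in the DRB3 overexpressor against wild type. The shares were 0.532% and 0.412% in the DRB2 overexpressor against wild type, and 0.577% and 0.614% between the overexpressors. With shares this small, none among 7 genes says little about the pathway. The log2 ratios of the 7 ran from -0.50 to 0.35 in the DRB3 overexpressor against wild type, with 4 below and 3 above 0. They ran from -0.75 to 0.10 in the DRB2 overexpressor against wild type and from -0.13 to 0.86 in the DRB3 against the DRB2 overexpressor. Auxin receptors and response factors, auxin transporters and SAUR genes, a large family of small auxin-induced genes, were not analysed here, because no gene of those lists was among the named ones.

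Within the GH3 family, 11 of 19 listed genes were measured, and 8 of the 11, GH3.1 among them, lay under the floor on all 3 arrays. Besides GH3.3 and WES1, GH3.17 was read above it. GH3.17, a further auxin-conjugating enzyme, read 462 units in the DRB3 overexpressor, 499.8 in the DRB2 overexpressor and 519 in wild type. Its readings lay close together, with log2 ratios to wild type of -0.17 and -0.05. Since most of the family's measured genes lay under the floor, no median ratio is given for it. GH3.9 lay under the floor throughout, at 53.3 units in the DRB3 overexpressor, 73.4 in the DRB2 overexpressor and 52.6 in wild type.

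Of 29 listed Aux/IAA genes 7 were measured, and 5 of them, IAA20, IAA30, IAA31, IAA33 and IAA34, lay under the floor on all 3 arrays. IAA18 was the other one above it, with 573.5 units in the DRB3 overexpressor, 599 in the DRB2 overexpressor and 616 in wild type. Its log2 ratios to wild type were -0.10 and -0.04, beside at least 1.25 and at least 0.08 for IAA29. No median is given for the 7, for the same reason.

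Genes that make, modify or respond to auxin elsewhere in the pathway were also within 2-fold. YUC2, a flavin monooxygenase of auxin synthesis, read 171.5 units in the DRB3 overexpressor, 144 in the DRB2 overexpressor and 134 in wild type. UGT74D1, a glucosyltransferase known to act on auxin, read 897, 981 and 1054 units in the same order. HAT2, a homeodomain-leucine zipper gene induced by auxin and shade, read 478 units in the DRB3 overexpressor, 426.5 in the DRB2 overexpressor and 407 in wild type. YUC2 and HAT2 thus had the order of IAA29 and UGT74D1 the reverse order. Such an order, with the DRB3 overexpressor highest and wild type lowest, was held by 20.7% of the 7766 genes that had any reading above the floor.

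The largest difference among these other genes was that of AT1G14130, in the list of auxin conjugation and breakdown. It read 439 units in the DRB3 overexpressor, 242 in the DRB2 overexpressor and 406 in wild type, so the DRB2 overexpressor was the low array. Its log2 ratio was 0.86 in the DRB3 against the DRB2 overexpressor and -0.75 in the DRB2 overexpressor against wild type. AT1G14120, of the same list, read 588 and 595 units in the DRB3 and DRB2 overexpressors and 832.5 in wild type. Its pattern, low by a similar amount in both overexpressors, was opposite in sign to that of WES1. LBD16 and LBD29, transcription factor genes of lateral root formation, lay under the floor on all 3 arrays.

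**Figure D3:**
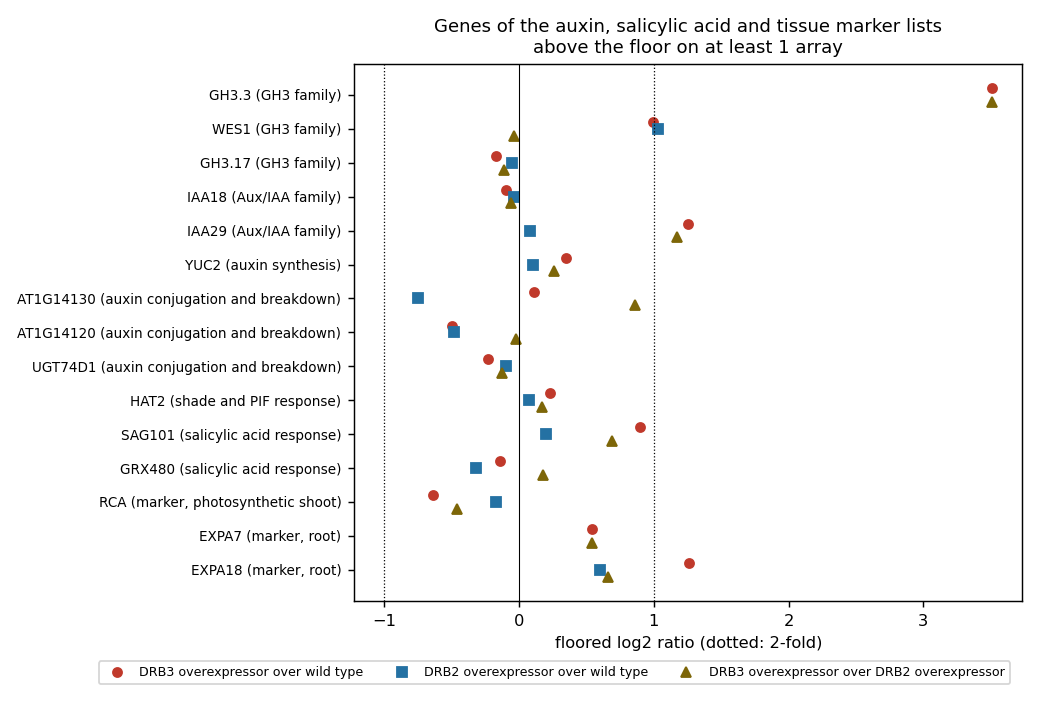
Floored log2 ratios in the 3 comparisons for the listed genes with any reading above the floor, 1 row per gene with its list in brackets, dotted lines at 2-fold; no point is drawn where both readings were under the floor. GH3.3 and IAA29 lie past the right-hand line in the DRB3 overexpressor against wild type, the root marker EXPA18 does too at 1.26, WES1 lies on that line against wild type, and the auxin genes that are not among the 4 lie between the lines.

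Of the markers measured, 2 of root, 1 of green tissue and 2 of salicylic acid response, EXPA18 alone passed 2-fold in a comparison. That was the DRB3 overexpressor against wild type, where 1.44% of all genes were higher and 1.53% lower. So few markers say little about tissue or defence. EXPA18 and EXPA7, expansin genes of root hairs, were the measured 2 of 8 root markers. EXPA18 read 439 units in the DRB3 overexpressor, 278 in the DRB2 overexpressor and 184 in wild type, the same order as IAA29, and was at least 2-fold higher in the DRB3 overexpressor relative to wild type. EXPA7 read 158 units in the DRB3 overexpressor and lay under the floor at 95.1 in the DRB2 overexpressor and 52.1 in wild type, as GH3.3 did. RCA, for Rubisco activase and the measured 1 of 8 markers of green tissue, read 21690.1 units in the DRB3 overexpressor, 29895.1 in the DRB2 overexpressor and 33717.5 in wild type. Shoot and root transcripts were thus read on all 3 arrays, but by few markers. Shoot content rests on RCA alone, and root content in the DRB2 overexpressor and wild type on EXPA18 alone. Of 10 salicylic acid response genes 2 were measured. SAG101, a defence signalling gene, read 202.5 units in the DRB3 overexpressor, 125 in the DRB2 overexpressor and 108 in wild type, and GRX480, a glutaredoxin gene, read 172, 152 and 190. The part of root content or of defence signalling in the readings of GH3.3, IAA29 and WES1 was not tested.

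Array quality measures differed between the arrays too. The ratio of 3′ to 5′ signal, a measure of RNA integrity and labelling, was lowest in the DRB3 overexpressor and highest in wild type in 6 of 6 control pairs. The pairs were for GAPDH, Actin and Ubq, with a further pair for each, so they are not 6 separate controls. In the further Ubq pair the DRB2 overexpressor and wild type lay close, at 4.61 and 4.66. The ratio ran from 1.5 to 17.7 over the pairs in the DRB3 overexpressor, from 2.11 to 24.7 in the DRB2 overexpressor and from 2.42 to 29.2 in wild type. The median ratio of wild type over overexpressor among 24 spike-in controls for poly(A) RNA was 4.37 for the DRB2 overexpressor and 1.17 for the DRB3 overexpressor. Both kinds of control ratio were taken from readings not raised to the floor, and the levels of the spike-in controls are not given here. The part of these quality measures in the members' ratios was not tested. The probe sets of DRB2 and DRB3 had no name in the gene table, so the labels were not checked against the overexpressed genes.

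The genes whose pair of log2 ratios to wild type lay nearest to that of a member differed from member to member. That follows from the selection, since the members' own ratios lay apart. Likeness here is a distance over 3 arrays, with wild type in both ratios. Both positions of GH3.3 and IAA29 rest on readings raised to the floor, so their distances and the order of their nearest genes depend on it, and WES1 alone was placed by measured ratios. The nearest to GH3.3 was AT4G12500, at 611 units in the DRB3 overexpressor, 146 in the DRB2 overexpressor and 60.5 in wild type. AT5G48570, also named ROF2 or FKBP65, an immunophilin, came next, at a floored distance of 1.13 log2 units, and read 687, 119 and 131 units on those arrays. AT5G57760, AT1G43910 and AT4G19430 followed at distances of 1.21, 1.27 and 1.31, all with their highest reading in the DRB3 overexpressor.

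For IAA29, as placed by the floor, the closest was OSM34, an osmotin gene of the defence-related thaumatin-like family, at a distance of 0.05, with 4900.3 units in the DRB3 overexpressor, 2236 in the DRB2 overexpressor and 2132 in wild type. AT2G42350, GSTU25, AT5G50335 and AT3G49960 lay within 0.11. GSTU25 and AT3G49960 are also among the 6 genes that shared the pattern of GH3.3 around the floor. WES1 had 5 genes within 0.11 as well: AT1G34380, AT5G10580, AT4G30450, AT5G62360 and AT1G35350. Each of the 5 was about as high in both overexpressors, AT1G35350 with 1129 units in the DRB3 overexpressor, 1044 in the DRB2 overexpressor and 537 in wild type. No member was among the nearest genes of another, which follows from the distance between their own ratios.

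None of the members' measured neighbours on the chromosome was at least 2-fold higher in a comparison. Of the 24 protein-coding genes within 3 places of a member, by their order in the RefSeq TAIR10.1 table, 12 were measured and 2 passed 2-fold in a comparison. Both were lower. In the DRB3 against wild type, DRB2 against wild type and DRB3 against DRB2 comparisons, 1.44%, 0.532% and 0.577% of all genes were higher. In the same order, 1.53%, 0.412% and 0.614% were lower. With shares this small, none higher among 12 genes says little about these loci. Whether 2 lower genes are more than other sets of 12 would hold was not tested. AT4G27280, 2 places from WES1, read 2023 units in the DRB3 overexpressor, 6086 in the DRB2 overexpressor and 5987 in wild type. AT2G15020, 3 places from GH3.1, read 69.2 units in the DRB3 overexpressor, which is under the floor, 156 in the DRB2 overexpressor and 286 in wild type. Beside GH3.3, AT2G23160 lay under the floor on all 3 arrays and AT2G23200 read 264 units in the DRB3 overexpressor, 225 in the DRB2 overexpressor and 295 in wild type. Beside IAA29, AT4G32290 read 429 units in the DRB3 overexpressor, 281 in the DRB2 overexpressor and 269.5 in wild type, a log2 ratio to wild type of 0.67 in the DRB3 overexpressor.

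The calls of the members held unequally when the processing was varied. GH3.3 stayed past 2-fold in the DRB3 overexpressor against both other arrays under each alternative tried, with log2 ratios from 2.03 to 4.18 over wild type and from 2.03 to 3.64 over the DRB2 overexpressor. The low end is a bound set by the higher floor. The ratio of WES1 to wild type moved little, from 0.84 to 0.99 in the DRB3 overexpressor and from 0.88 to 1.03 in the DRB2 overexpressor, and its call turns on which side of 1 it lands.

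**Figure D4:**
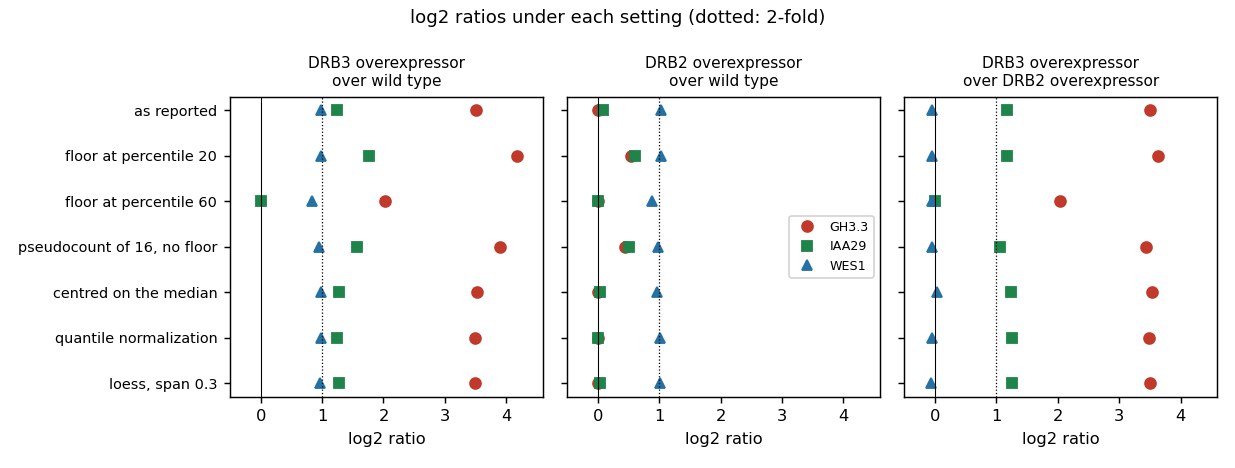
log2 ratios of GH3.3, IAA29 and WES1 in the 3 comparisons, as reported and under 6 other settings of the floor or of the scaling, with the dotted line at 2-fold. GH3.3 stays to the right of the line in both panels with the DRB3 overexpressor, IAA29 goes to 0 with the floor at percentile 60, and WES1 stays beside the line in both panels against wild type.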

How the data were processed

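The authors deposited linear MAS5 intensities, computed with MAS5 as the submitters' processing notes say, with a version and target not given in the sources used here. They labelled biotinylated cRNA from 10 ug of total RNA, per the labels' protocols. The series' design text describes a different experiment, so groups came from each sample's genotype. The 2% trimmed mean was 500.05 on every array, and values were used as deposited.

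Of 22810 probe sets, 13513 had 1 gene, 503 had several and were not used, and 8794 were unnamed here. The 64 controls, which were left out, lie within these parts and do not add to them. Of several probe sets of a gene, that of highest mean stood for it; 13286 of 13356 genes matched the RefSeq TAIR10.1 table. The floor was the mean over arrays of percentile 40, 109 units. The members, the 13 gene lists (matched by locus, SAUR by prefix, and a list by the word auxin among RefSeq synonyms, which measured no gene), the 2-fold threshold and the alternatives were chosen with earlier results of these data known. Named beyond the members were listed genes past 2-fold, up to 3 others per list by mean intensity, and the 5 nearest genes per member. GH3.9, the Aux/IAA genes under the floor, chromosome neighbours and genes read only in the DRB3 overexpressor were added after values were seen. The steps were tested on simulated data. Python 3.11.15, numpy 2.4.6, pandas 2.3.3, statsmodels 0.14.6 and matplotlib 3.10.9 were used.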

Additional observations from a re-analysis of the deposited data

How the results depend on the processing

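No paired analysis was possible because each group has 1 array; leaving out a replicate was not possible for the same reason. Of 135 alternative values, 117 stayed on their side of the threshold or, for counts of members, within 1.5 times the count reported. Some of these could not have moved, such as called ratios at the 1.5-fold threshold, so the 117 is not a measure of robustness. The other 18 did not stay, and 0 of the called ratios changed sign. Among the uncalled ones, WES1 in the DRB3 against the DRB2 overexpressor went to 0.03 when centred, beside -0.04 as reported. The count of members higher in the DRB3 overexpressor against wild type was 3 with the pseudocount and at 1.5-fold, beside 2. With the floor at percentile 60, IAA29 went to 0 in the DRB3 overexpressor against wild type and against the DRB2 overexpressor, since its readings lie under that floor, and WES1 to 0.88 in the DRB2 overexpressor against wild type; members called higher were then 1, 0 and 1 in the DRB3 against wild type, DRB2 against wild type and DRB3 against DRB2 comparisons. With a pseudocount of 16 and no floor, GH3.1 reached 1.14 in the DRB3 and 1.38 in the DRB2 overexpressor against wild type, both from readings under the floor, and WES1 in the DRB2 overexpressor was 0.98. Centring on the median put that WES1 ratio at 0.96, leaving 0 members called there. At a 3-fold threshold IAA29 (1.25 over wild type and 1.17 over the DRB2 overexpressor) and WES1 (1.03) were not called, leaving 1, 0 and 1 members; at 1.5-fold WES1 in the DRB3 overexpressor (0.99) was. Averaging the probe sets of a gene changes no member, since each has 1. Over all genes, the number at least 2-fold higher went to 369, 429 and 164 with the floor at percentile 20, beside 192, 71 and 77 as reported, and to 98, 29 and 32 at percentile 60. Readings near or under the floor limit GH3.1 throughout, and GH3.3 and IAA29 on the lower arrays.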
